A study of Mus musculus and Acomys cahirinus with 16 samples.

Results

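Epidermal adhesion to the basement membrane was followed through 9 genes: Col17a1, Itga6 and Itgb4 of the hemidesmosome, Lama3 and Lamb3 of laminin-332, and the integrin subunits Itga3, Itgb1, Itga5 and Itgb6. They were taken from a list of symbols, with no threshold on their values, and each was found 1 time among the 56980 genes counted for mouse and 1 time among the 19818 counted for spiny mouse. Polyadenylated RNA had been sequenced from whole skin of 2 species, the laboratory mouse (Mus musculus) and Acomys cahirinus, the African spiny mouse, a rodent known for healing skin wounds with little scarring. In each species 4 samples were untreated and 4 had been treated with DMBA/TPA, which gives 16 samples in 4 groups. DMBA is the DNA-damaging carcinogen dimethylbenzanthracene, and TPA is a phorbol ester used after it as a tumour promoter on skin. The series title concerns resistance of the spiny mouse to this carcinogenesis, whereas its design text speaks of irradiated fibroblasts, and the sample labels were followed. The labels name untreated, not vehicle-treated, controls, and strain, age, sex, dose and duration are not given in the sources used here. Nothing in the labels says that the replicates came from separate animals, so the p-values measure the spread between these samples, which may be technical.

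Hemidesmosomes rivet basal keratinocytes to the basement membrane. In them integrin α6β4 (Itga6, Itgb4) and collagen XVII (Col17a1) span the membrane, plectin and the dystonin isoform BP230 link them to keratins 5 and 14, and outside the cell they hold laminin-332, a trimer that includes the chains encoded by Lama3 and Lamb3. Integrin α3β1 (Itga3, Itgb1) also binds laminin-332, while α5β1 (Itga5) binds fibronectin and αvβ6 (Itgb6) activates latent TGF-β, and these are classically described as integrins that keratinocytes deploy at wound edges.

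Promoter sequence was available from RefSeq for 6 of the 9 members, as the 250 bases before each annotated start on the mouse assembly GRCm38.p6, and 3 windows are printed because their genes carry the main contrasts below. Col17a1 and Lamb3 were the members that fell in treated mouse skin, and Itga3 was the member that rose there. Each window reads 5′ to 3′ on the strand of the gene. Col17a1 lies at chr19:47692043-47692292 on the minus strand, Lamb3 at chr1:193301744-193301993 on the plus strand, and Itga3 at chr11:95076715-95076964 on the minus strand. Capitals mark the GC box GGGCGG, searched on both strands.
Col17a1: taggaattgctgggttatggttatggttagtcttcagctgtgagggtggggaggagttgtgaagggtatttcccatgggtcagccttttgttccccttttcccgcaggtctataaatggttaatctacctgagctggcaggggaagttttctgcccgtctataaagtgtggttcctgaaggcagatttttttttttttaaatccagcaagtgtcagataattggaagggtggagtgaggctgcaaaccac
Lamb3: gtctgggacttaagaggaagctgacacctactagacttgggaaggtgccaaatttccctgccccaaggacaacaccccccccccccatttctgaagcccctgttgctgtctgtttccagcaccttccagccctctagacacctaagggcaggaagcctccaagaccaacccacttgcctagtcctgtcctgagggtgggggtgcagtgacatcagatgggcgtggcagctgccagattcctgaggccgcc
Itga3: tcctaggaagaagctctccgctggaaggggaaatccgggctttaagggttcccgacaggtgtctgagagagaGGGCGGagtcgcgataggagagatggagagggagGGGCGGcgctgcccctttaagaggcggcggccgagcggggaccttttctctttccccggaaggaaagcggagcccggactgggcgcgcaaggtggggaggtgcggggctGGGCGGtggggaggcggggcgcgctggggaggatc
The printed Itga3 window held 3 GC boxes and had a GC content of 67.6%, against 46% for Col17a1, 58.8% for Lamb3 and a median of 52.4% over all windows. At a second annotated start of Itga3, the window held 1 GC box and had a GC content of 50.8%. A second Lamb3 window had 61.2%. GC boxes also lay in the windows of Itgb1 (1) and Itga5 (2), but not in those of Col17a1, Lamb3 and Itgb6. Of 32851 mouse windows of the same length, 32.7% held a GC box. The AP-1 motif TGAGTCA, likewise searched on both strands, was in none of the windows used for these 6 members and in 4.46% of all windows. A match or its absence describes these letters in these windows only.

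Total counts ran from 19608787 to 30198281 per mouse sample and from 21143918 to 30561256 per spiny mouse sample. Levels are given as CPM, that is counts divided by the library total after TMM scaling, with samples in the order of replicates 1 to 4, and 3 counts correspond to at most 0.158 CPM. That floor covers counting error only, and all 9 members were far above it in every sample. Basal and suprabasal keratinocyte markers of the labelled skin were present in all samples, and none of the listed markers of 10 cell types was at 0 throughout a species. Untreated mouse replicate 2 stood apart from the other untreated mouse samples. Its summed level of 6 anagen hair follicle markers was 2359 CPM, against 9.45, 38.0 and 9.61 in replicates 1, 3 and 4, and its column name carries a suffix that the other columns lack. It did not stand apart in follicle markers alone. Among genes taken up below, it was the highest untreated mouse sample for Dst (1890 CPM, others 972.2 to 1270) and Plec (1837, others 842.7 to 1267). It was the lowest for Krt14 (1359 CPM, others 1984 to 2696) and Cd151 (59.47, others 108.1 to 124). Treated mouse samples had 21000 to 23300 CPM of these follicle markers, with 6 of 6 called higher. In spiny mouse the sums ran from 1130 to 11600 CPM in untreated and from 196 to 3400 CPM in treated skin, with 0 of 6 called. Skeletal muscle markers summed to 7950 to 9980 CPM in untreated and 1830 to 2410 CPM in treated mouse skin (6 of 6 lower), and to 9420 to 12100 and 3150 to 6480 CPM in spiny mouse (5 of 5 tested lower). The 4 basal keratinocyte markers summed to 5110 to 8020 CPM in untreated and 13000 to 17500 CPM in treated mouse skin, and to 7400 to 8680 and 15200 to 19000 CPM in spiny mouse. In each species Krt5 and Krt14 rose, Krt15 fell and Trp63 was not called. Hyperplastic keratinocyte markers (Krt6a, Krt6b, Krt16, Krt17, Sprr1b) summed to 673 to 1750 CPM in untreated and 13500 to 18800 CPM in treated mouse skin (5 of 5 higher), and without Krt6b to 1240 to 2230 and 6680 to 8140 CPM in spiny mouse (4 of 4 higher). The part of these shifts in the member values below was not tested, and in whole tissue fewer cells of a type cannot be told apart from less RNA per cell.

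In mouse skin 3 of the 9 members changed with DMBA/TPA: Itga3 rose, while Col17a1 and Lamb3 fell. In spiny mouse skin 6 of the 9 rose and none fell: Col17a1, Itga6, Itgb4, Itga3, Itgb1 and Itga5. A call is an adjusted p under 0.05 in edgeR's quasi-likelihood test with Benjamini-Hochberg adjustment over all genes. All 9 members passed the filter on low counts in each species. By that rule 61.2% of the 19740 genes tested in mouse were called (25.9% higher, 35.3% lower), and 55.1% of 14833 in spiny mouse (28.2% higher, 26.9% lower). Against these shares, 3 of 9 lay below the background in mouse, while in spiny mouse 6 of 9 lay near the background of calls in either direction and above that of rises. Nothing particular to the members was read from these counts. The median log2 fold change of the members was 0.037 in mouse, beside -0.146 over all genes, and 0.456 in spiny mouse, beside -0.01 over all genes. The treated samples lay wholly above or below the untreated ones for 3 members in mouse (Col17a1, Itga3, Itgb1) and for 5 in spiny mouse (Itga6, Itgb4, Itga3, Itgb1, Itga5), where 58.6% and 50.9% of all genes showed no overlap.

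**Figure D1:**
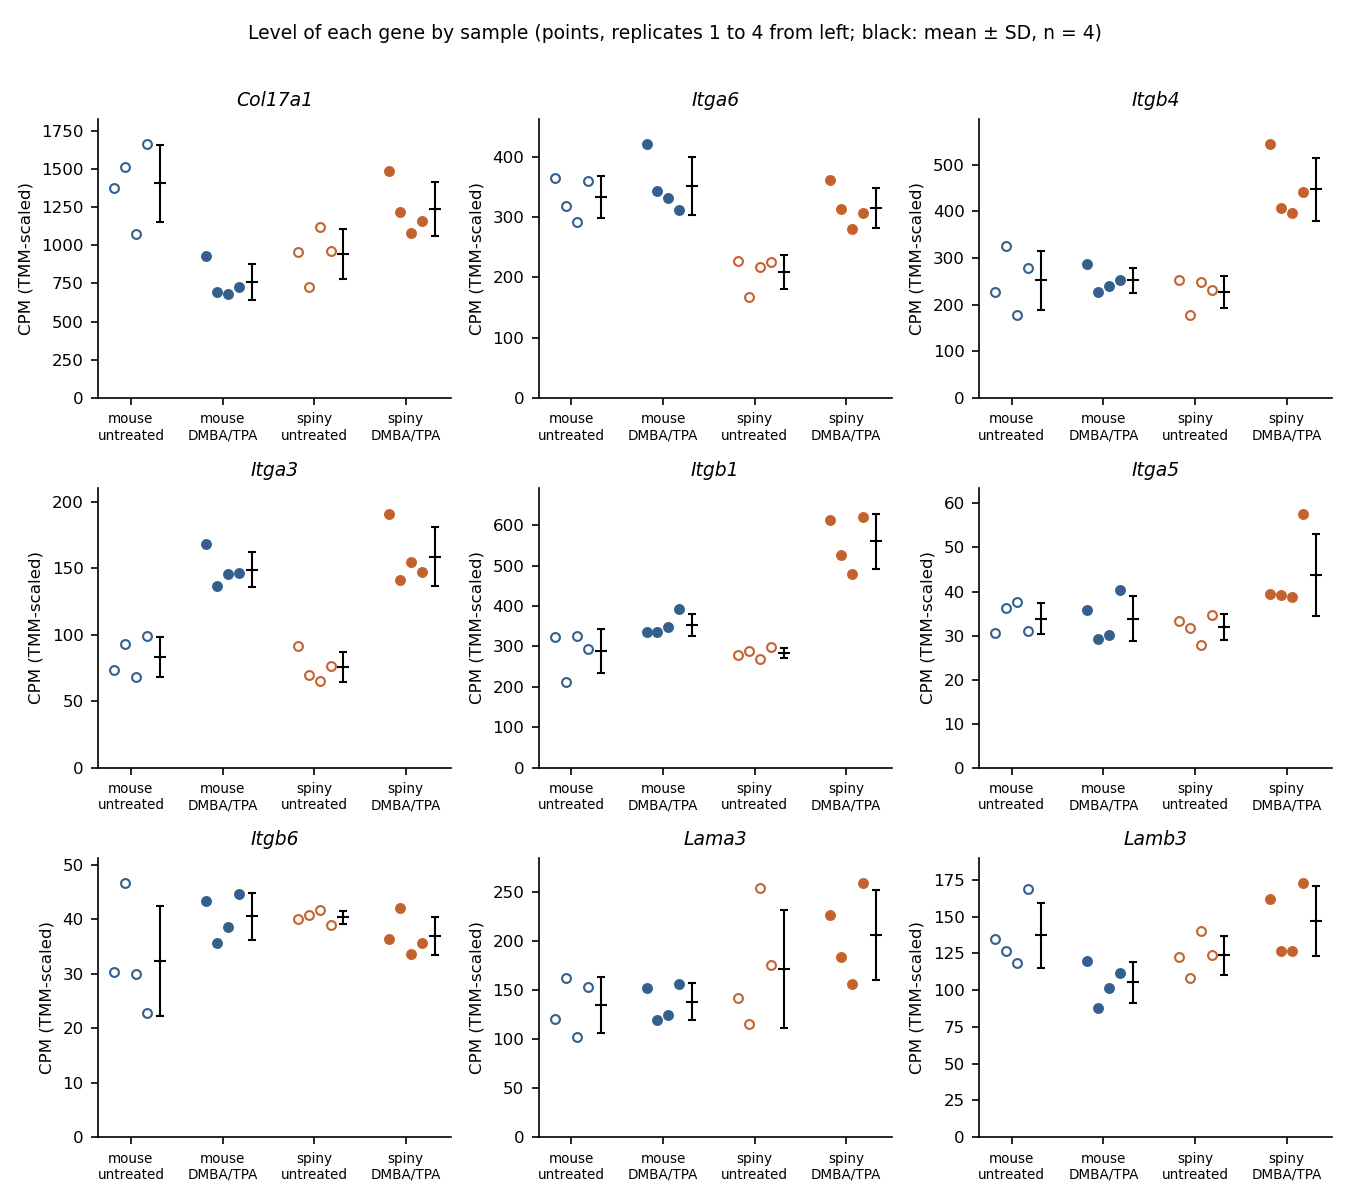
Level of each of the 9 genes in CPM (TMM-scaled, axes from 0) in every sample of the 4 groups, with points for replicates 1 to 4 from left and the mean ± SD (n = 4) in black. Col17a1 falls from 1405 to 757 CPM on average in mouse and is higher after treatment in spiny mouse (942 to 1236 CPM), while Itga3 rises in both species.

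Among the hemidesmosome genes, Col17a1 moved in opposite directions in the 2 species. Col17a1 (ENSMUSG00000025064, GRCm39 chromosome 19, 47634783 to 47680533, minus strand), the collagen that crosses the basal cell membrane, was at 1375, 1511, 1071 and 1664 CPM in untreated mouse skin. In treated mouse skin it was at 929.7, 692.1, 679.5 and 727.1 CPM. Every treated sample lay below every untreated one. The means were 1405 ± 252 and 757.1 ± 117 CPM (SD, n = 4 each), which is a log2 fold change of -0.89 (standard error 0.191, edgeR adjusted p = 0.00332). In spiny mouse the untreated samples had 955.5, 727.8, 1122 and 961.8 CPM, and the treated samples 1485, 1221, 1077 and 1162 CPM. Here the groups overlapped, since treated replicate 3 was below untreated replicate 3. The rise from 941.9 ± 162 to 1236 ± 176 CPM (SD, n = 4 each) was a log2 fold change of 0.39 (standard error 0.149, edgeR adjusted p = 0.0488). This call was the closest of the 6 to the threshold: it was lost with DESeq2 size factors, with upper-quartile scaling and with library size alone (edgeR adjusted p = 0.0569, 0.0781 and 0.0667), and when untreated replicate 1, 2 or 4 or treated replicate 1, 2 or 4 was left out (edgeR adjusted p from 0.0603 to 0.126).

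The integrin pair that binds laminin-332 in hemidesmosomes, α6β4, rose in spiny mouse and was not called in mouse. Itga6 (ENSMUSG00000027111, chromosome 2, 71575960 to 71688760, plus strand) had 364.7, 317.5, 291.4 and 358.9 CPM in untreated and 421, 343.4, 331.2 and 311.5 CPM in treated mouse skin. These groups overlapped, with a log2 fold change of 0.079 (standard error 0.144, 95% interval -0.25 to 0.40, edgeR adjusted p = 0.652). In spiny mouse Itga6 went from 226.4, 167.5, 216.5 and 225.8 CPM to 360.6, 313, 280.4 and 307.2 CPM. All 4 treated samples exceeded all 4 untreated ones, and the log2 fold change was 0.59 (standard error 0.115, edgeR adjusted p = 0.0021).

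Itgb4 (ENSMUSG00000020758, chromosome 11, 115865535 to 115899238, plus strand) encodes the subunit whose long cytoplasmic tail binds plectin. Untreated mouse samples had 227.2, 325.5, 177.7 and 278.1 CPM, and treated ones 287.1, 227.4, 239.3 and 253.6 CPM. The treated values lay within the untreated range, with means of 252.1 ± 63.8 and 251.9 ± 25.9 CPM (SD, n = 4 each) and a log2 fold change of -0.0015 (standard error 0.188, 95% interval -0.42 to 0.42, edgeR adjusted p = 0.995). Untreated replicate 2 was the highest of the untreated samples, and without it the log2 fold change was 0.23 (edgeR adjusted p = 0.165). In spiny mouse Itgb4 went from 252.1, 177.6, 248.5 and 231.5 CPM to 544.7, 406.2, 396.3 and 442.3 CPM. The groups were far apart, and the mean went from 227.4 ± 34.4 to 447.4 ± 67.8 CPM (SD, n = 4 each), which is a log2 fold change of 0.98 (standard error 0.139, edgeR adjusted p = 0.000393).

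Of 6 partner genes of the hemidesmosome and its anchorage, 2 rose and 2 fell in mouse, and 2 rose and 1 fell in spiny mouse. Their median log2 fold change was -0.175 in mouse and 0.0116 in spiny mouse. Of all genes tested 25.9% rose and 35.3% fell in mouse, and 28.2% rose and 26.9% fell in spiny mouse. The basal keratins Krt5 and Krt14 rose in both species. Krt14 went from 2129 ± 593 to 9513 ± 1470 CPM in mouse and from 2246 ± 46 to 7729 ± 615 CPM in spiny mouse (SD, n = 4 each), log2 fold changes of 2.16 (edgeR adjusted p = 0.00018) and 1.78 (edgeR adjusted p = 8.16e-06). Krt5 had log2 fold changes of 0.82 (edgeR adjusted p = 0.00805) and 0.95 (edgeR adjusted p = 0.000202). Dst, the dystonin gene that includes BP230, went from 1070, 1890, 972.2 and 1270 CPM to 458.9, 431.3, 385.1 and 442.3 CPM in mouse and from 801.1, 504.5, 844 and 850.5 CPM to 497.2, 491.3, 472.5 and 479.6 CPM in spiny mouse. All treated samples were below all untreated ones in each species, with log2 fold changes of -1.60 (edgeR adjusted p = 0.000342) and -0.63 (edgeR adjusted p = 0.00749). Dst is also made as long isoforms in nerve and muscle. Of its exon bases, 4.54% are shared with Trem1 in spiny mouse and 3.59% with genes on the other strand in mouse. For the other partners in mouse, the part shared with another gene was 7.04% for Cd151, 5.87% for Krt5, 1.13% for Plec and 0.35% for Col7a1, with none for Krt14. Muscle and Schwann cell markers were lower in the treated samples as well (Schwann cell sums of 174 to 264 against 72.7 to 79.6 CPM in mouse with 3 of 4 lower, and 142 to 199 against 120 to 158 CPM in spiny mouse with 2 of 4 lower), and their part in the Dst values was not tested. Col7a1, the anchoring fibril collagen, fell in mouse by a log2 fold change of -0.996 (edgeR adjusted p = 0.0196) and had a log2 fold change of -0.20 in spiny mouse (edgeR adjusted p = 0.239). The mouse call was lost without treated replicate 1, 2 or 3 (edgeR adjusted p from 0.0525 to 0.0564) and kept without untreated replicate 2, the highest sample, with a log2 fold change of -0.48 (edgeR adjusted p = 0.0165), and in spiny mouse Col7a1 was called lower without treated replicate 4 (-0.35, edgeR adjusted p = 0.0112). Plec, encoding plectin, had log2 fold changes of -0.51 and -0.14 (edgeR adjusted p = 0.0982 and 0.302), and Cd151, a tetraspanin that associates with laminin-binding integrins, had 0.16 in both species (edgeR adjusted p = 0.524 and 0.0626). In mouse Plec had -0.16 without untreated replicate 2, the highest sample (edgeR adjusted p = 0.347), and was called lower with upper-quartile factors (-0.74, edgeR adjusted p = 0.0372). Cd151 was called in spiny mouse without untreated replicate 2 or treated replicate 3 (0.19 and 0.20, edgeR adjusted p = 0.0324 and 0.036).

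**Figure D2:**
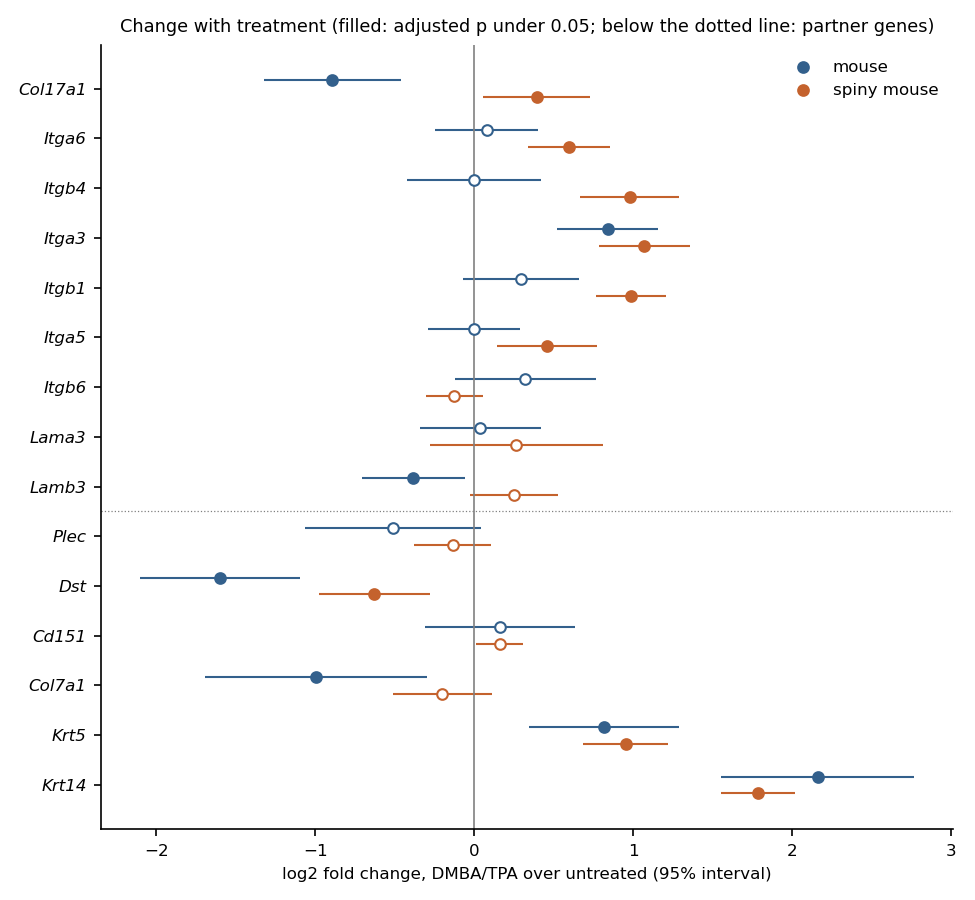
Log2 fold change of DMBA/TPA over untreated skin for the 9 members and, below the dotted line, 6 hemidesmosome partners, in mouse (blue) and spiny mouse (orange). Lines are 95% intervals and filled points have an edgeR adjusted p under 0.05. For Col17a1 the intervals of the species lie on opposite sides of 0, and for Krt5 and Krt14 both points lie to the right of 0.

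Of the laminin-332 chains among the 9 genes, Lama3 was called in neither species and Lamb3 fell in mouse. Lama3 (ENSMUSG00000024421, chromosome 18, 12466876 to 12716070, plus strand), the α chain, was at 120.8, 162.9, 102 and 153.7 CPM in untreated and 152.4, 119.4, 125.2 and 156.4 CPM in treated mouse skin. In spiny mouse it was at 141.7, 115.7, 254.3 and 176.3 CPM and at 227.2, 184.2, 156 and 259.3 CPM. The groups overlapped in each species, and the log2 fold changes were 0.037 (95% interval -0.34 to 0.42, edgeR adjusted p = 0.86) and 0.26 (95% interval -0.28 to 0.81, edgeR adjusted p = 0.375). Untreated spiny mouse replicate 3, at 254.3 CPM, lay above 3 of the 4 treated samples, and leaving out 1 sample moved the spiny mouse value between 0.12 (without untreated replicate 2) and 0.52 (without untreated replicate 3, edgeR adjusted p = 0.0537).

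Lamb3 (ENSMUSG00000026639, chromosome 1, 192890007 to 193026186, plus strand), the β chain, was at 135, 126.8, 118.3 and 169 CPM in untreated and 119.7, 87.87, 101.6 and 111.9 CPM in treated mouse skin. The treated samples lay lower except for replicate 1, which was above untreated replicate 3. The mean went from 137.3 ± 22.2 to 105.3 ± 13.8 CPM (SD, n = 4 each), which is a log2 fold change of -0.38 (standard error 0.144, edgeR adjusted p = 0.0422). This call was lost with DESeq2 size factors (log2 fold change -0.29, edgeR adjusted p = 0.118) and with DESeq2's own test (-0.29, DESeq2 adjusted p = 0.107). It was also lost with no filter on low counts (-0.24, edgeR adjusted p = 0.253). The same held without untreated replicate 1 or 4 or any of the 4 treated replicates (edgeR adjusted p from 0.0515 to 0.266, the log2 fold change being -0.21 without treated replicate 2). In spiny mouse Lamb3 was at 122.6, 108.1, 140.4 and 123.8 CPM untreated and at 161.9, 126.6, 126.4 and 172.7 CPM treated, with overlapping groups and a log2 fold change of 0.25 (standard error 0.122, 95% interval -0.028 to 0.52, edgeR adjusted p = 0.113).

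Itga3 was the only member called in the same direction in both species. Itga3 (ENSMUSG00000001507, chromosome 11, 94935300 to 94967627, minus strand), the α chain of the second laminin-332 receptor, was at 73.0, 93.0, 68.4 and 98.9 CPM in untreated and 167.8, 136.2, 145.8 and 146 CPM in treated mouse skin. In spiny mouse it was at 91.3, 69.9, 64.9 and 76.2 CPM and at 191, 141.1, 154.5 and 147.3 CPM. All treated samples exceeded all untreated ones in each species. The log2 fold changes were 0.84 (standard error 0.142, edgeR adjusted p = 0.000962) in mouse and 1.07 (standard error 0.127, edgeR adjusted p = 0.000153) in spiny mouse.

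Itgb1 (ENSMUSG00000025809, chromosome 8, 129412135 to 129459681, plus strand), the β subunit shared by α3β1, α5β1 and many other integrins, was at 324.1, 210.9, 325.2 and 292.5 CPM in untreated and at 336, 336, 347.2 and 393.6 CPM in treated mouse skin. The treated samples were all higher, by a small margin over untreated replicates 1 and 3, and the log2 fold change of 0.29 was not called (standard error 0.161, edgeR adjusted p = 0.14). It was called with DESeq2 size factors (log2 fold change 0.39, edgeR adjusted p = 0.046) and without untreated replicate 2, the lowest sample (log2 fold change 0.26, edgeR adjusted p = 0.0231). In spiny mouse Itgb1 went from 278.3, 287.5, 269.9 and 297.5 CPM to 613.1, 526.7, 479.9 and 621.5 CPM. The groups were widely separate, with means of 283.3 ± 11.9 and 560.3 ± 68.6 CPM (SD, n = 4 each) and a log2 fold change of 0.98 (standard error 0.0972, edgeR adjusted p = 6.33e-05).

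Itga5 (ENSMUSG00000000555, chromosome 15, 103252713 to 103275190, minus strand), the fibronectin receptor chain, was at 30.7, 36.1, 37.5 and 31.1 CPM in untreated and 35.8, 29.3, 30.0 and 40.2 CPM in treated mouse skin. The means were equal at 33.8 CPM (SD 3.49 and 5.15, n = 4 each), with a log2 fold change of -0.00029 (standard error 0.129, 95% interval -0.29 to 0.29, edgeR adjusted p = 0.999). In spiny mouse Itga5 was at 33.3, 31.8, 27.9 and 34.7 CPM untreated and at 39.5, 39.2, 38.8 and 57.7 CPM treated. Treated replicate 4 was far above the other treated samples, and all 4 treated samples exceeded the untreated ones. The log2 fold change was 0.46 (standard error 0.14, edgeR adjusted p = 0.0206), it was 0.31 without treated replicate 4 (edgeR adjusted p = 0.0196), and the call was lost without untreated replicate 3 (log2 fold change 0.40, edgeR adjusted p = 0.051).

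Itgb6 (ENSMUSG00000026971, chromosome 2, 60428636 to 60552987, minus strand), the epithelial partner of αv, was at 30.3, 46.6, 30.0 and 22.8 CPM in untreated and 43.4, 35.6, 38.5 and 44.6 CPM in treated mouse skin. Untreated replicate 2 was the highest of all 8 mouse samples, and the log2 fold change of 0.32 was not called (standard error 0.197, edgeR adjusted p = 0.183). Without that sample, which also stood apart in hair follicle markers, Itgb6 was called higher with a log2 fold change of 0.64 (edgeR adjusted p = 0.000546). In spiny mouse Itgb6 was at 39.98, 40.8, 41.6 and 38.9 CPM untreated and at 36.4, 42.0, 33.7 and 35.6 CPM treated, with overlapping groups and a log2 fold change of -0.13 (standard error 0.0791, 95% interval -0.30 to 0.052, edgeR adjusted p = 0.2).

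By level per kilobase of exon, Col17a1 was highest and Itgb1 second in each of the 4 groups. Itga5 and Itgb6 were the lowest in each, with Itgb6 last except in untreated spiny mouse skin, where Itga5 was last. Per kilobase, Col17a1 stood at 233.8 ± 41.9 CPM in untreated and 125.9 ± 19.4 CPM in treated mouse skin, and at 169.6 ± 29.2 and 222.5 ± 31.7 CPM in spiny mouse (SD, n = 4 each). Itgb1 followed at 70.6 ± 13.2, 86.6 ± 6.73, 66.7 ± 2.8 and 132.0 ± 16.2 CPM per kilobase in the same 4 groups (SD, n = 4 each). The samples of Col17a1 and Itgb1 did not overlap in any group. Itga6 and Itgb4 came next and overlapped in both mouse groups and in untreated spiny mouse skin. In treated spiny mouse skin they did not overlap, with Itgb4 at 68.9 ± 10.4 and Itga6 at 51.0 ± 5.4 CPM per kilobase (SD, n = 4 each). Lamb3, Lama3 and Itga3 filled the middle. Itga3 ranked below Lamb3 in untreated skin of both species, at 14.6 ± 2.61 against 20.8 ± 3.36 CPM per kilobase in mouse and 13.9 ± 2.1 against 24.8 ± 2.65 in spiny mouse (SD, n = 4 each). After treatment Itga3 ranked above Lamb3 in mouse (26.1 ± 2.34 against 15.9 ± 2.08 CPM per kilobase), while in spiny mouse they overlapped at 29.1 ± 4.1 and 29.5 ± 4.8 (SD, n = 4 each). Samples of Itga3 and Lama3 overlapped in untreated skin of both species, as did those of Lamb3 and the next higher gene. At the low end, Itga5 and Itgb6 overlapped in every group but treated spiny mouse skin, and Itga5 and Itgb6 did not exceed 9.81 and 7.75 CPM per kilobase in any group mean.

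The change with treatment differed between the species for 5 of the 9 members, in each case larger in spiny mouse, where 46.1% of the 13656 genes tested in both species differed (21.4% larger and 24.7% smaller in spiny mouse). The test was the species by treatment term of the edgeR fit over all 16 samples, with a positive value where spiny mouse had the larger log2 fold change. The median over the 9 members was 0.514, beside -0.0318 over all genes tested. Col17a1 differed most, by 1.28 (standard error 0.242, edgeR adjusted p = 0.000531). Itgb4 differed by 0.98 (standard error 0.242, edgeR adjusted p = 0.00403), Itgb1 by 0.69 (standard error 0.187, edgeR adjusted p = 0.00709) and Lamb3 by 0.63 (standard error 0.195, edgeR adjusted p = 0.0153). For Itga6 the difference was 0.51 (standard error 0.181, edgeR adjusted p = 0.0293). Itga3, which rose in both species, had a difference of 0.23 (95% interval -0.18 to 0.64, edgeR adjusted p = 0.353), and Lama3 of 0.23 (95% interval -0.44 to 0.90, edgeR adjusted p = 0.58), which ran from 0.035 without untreated mouse replicate 2 to 0.48 without untreated spiny mouse replicate 3. Itga5 had 0.46 (95% interval 0.039 to 0.87, edgeR adjusted p = 0.0689) and Itgb6 -0.45 (95% interval -0.92 to 0.026, edgeR adjusted p = 0.113). Among the partners Dst differed, by 0.97 (edgeR adjusted p = 0.00941) and without untreated mouse replicate 2 by 0.64 (edgeR adjusted p = 0.0159), while Krt5 (0.13), Krt14 (-0.38) and Col7a1 (0.80) were not called (edgeR adjusted p = 0.662, 0.272 and 0.0847). The Col7a1 difference was 0.28 without untreated mouse replicate 2 (edgeR adjusted p = 0.314), and it was called without untreated mouse replicate 1 or 3 (0.95 and 0.92, edgeR adjusted p = 0.0347 and 0.0467).

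The calls for Col17a1, Itgb4 and Itgb1 held in each alternative that was run and without each sample in turn. That for Itga6 was lost with DESeq2's own test (difference 0.41, DESeq2 adjusted p = 0.0603), with DESeq2 size factors (0.41, edgeR adjusted p = 0.0873), with no filter on low counts (0.38, edgeR adjusted p = 0.111), and without untreated mouse replicate 1 or 4, treated mouse replicate 2, 3 or 4, untreated spiny mouse replicate 2 or treated spiny mouse replicate 1 (edgeR adjusted p from 0.0568 to 0.105). Lamb3 lost its call without treated mouse replicate 2 (0.46, edgeR adjusted p = 0.0727) and with no filter on low counts (0.50, edgeR adjusted p = 0.0543). Itga5 was called with upper-quartile factors (0.63, edgeR adjusted p = 0.0215), with library size alone (0.68, edgeR adjusted p = 0.0144) and without treated mouse replicate 4 (0.53, edgeR adjusted p = 0.0401). Itgb6 was called smaller in spiny mouse without untreated mouse replicate 2 (-0.77, edgeR adjusted p = 0.000417) and with no filter on low counts (-0.58, edgeR adjusted p = 0.041). Without that sample the differences of Col17a1 and Itgb4 were 1.16 and 0.74 (edgeR adjusted p = 0.000831 and 0.00954). The scaling shifted all differences together: the median over all genes moved by -0.103 under DESeq2 size factors, by 0.164 under upper-quartile factors and by 0.221 under library size alone, and the share of called genes that were larger in spiny mouse was 46.4% with TMM, 36.9%, 61.2% and 66.2%.

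Ratios between genes of the same library do not depend on the scaling of the library. For 11 ratios of per-length levels the log2 ratio was taken in each library, and treated and untreated samples were compared within each species by an exact two-sided permutation test of 4 against 4, whose smallest p is 0.0286. After adjustment over the 22 tests, 17 passed (7 in mouse, 10 in spiny mouse), each with an exact p of 0.0286, an adjusted p of 0.037 and groups that did not overlap. All 17 lie at the smallest p, so their shared adjusted p depends on how many ratios lie there. Ratios of other gene pairs were not computed. Among single genes, 58.6% in mouse and 50.9% in spiny mouse showed no overlap. Nothing particular to these pairs was read from the count.

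**Figure D3:**
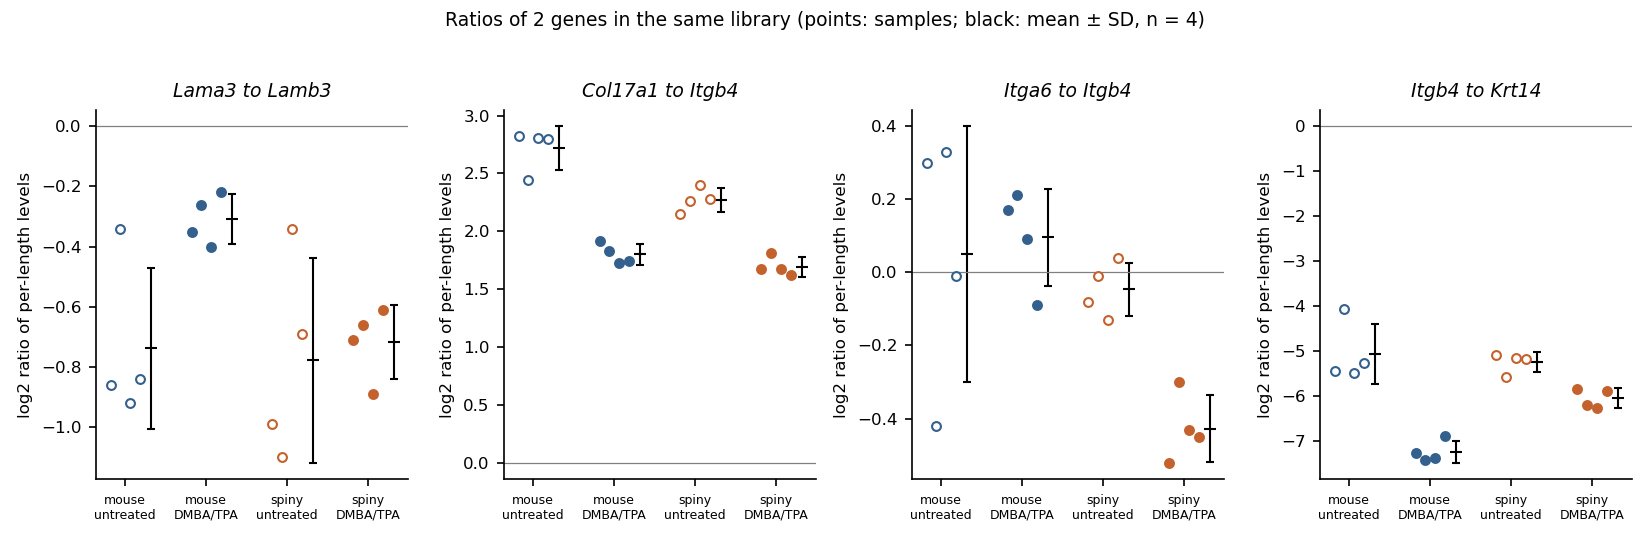
Log2 ratio of the per-length levels of 4 gene pairs in each library, with points for the samples of the 4 groups and the mean ± SD (n = 4) in black. Col17a1 to Itgb4 lies lower in treated skin of both species, Lama3 to Lamb3 overlaps between treated and untreated samples in each, and Itga6 to Itgb4 is separate between treated and untreated samples in spiny mouse.

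Within laminin-332, the ratio of the α to the β chain, Lama3 to Lamb3, went from 0.599 to 0.809 in mouse (exact permutation p = 0.0857, adjusted p = 0.105), and in spiny mouse from 0.583 to 0.608 (exact permutation p = 0.743, adjusted p = 0.817). Untreated mouse replicate 2 lay at a log2 ratio of -0.34, with the other 3 between -0.92 and -0.84, and without it the mouse change passed (log2 0.56, exact permutation adjusted p = 0.0331).

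In the hemidesmosome, Col17a1 fell relative to Itgb4 in both species. The level of Col17a1 itself fell in mouse and rose in spiny mouse, where the groups overlapped and the call was close to the threshold. The log2 ratio of Col17a1 to Itgb4 was 2.82, 2.44, 2.81 and 2.80 in untreated and 1.92, 1.83, 1.73 and 1.74 in treated mouse skin. In spiny mouse it was 2.15, 2.26, 2.40 and 2.28 and then 1.67, 1.81, 1.67 and 1.62. The linear means went from 6.58 to 3.49 in mouse and, in spiny mouse, from 4.83 to 3.23. The partner subunits Itga6 and Itgb4 had a ratio of 1.04 in untreated and 1.07 in treated mouse skin (exact permutation p = 0.857), while in spiny mouse their ratio fell from 0.968 to 0.744, with log2 ratios of -0.08, -0.01, -0.13 and 0.04 before and -0.52, -0.30, -0.43 and -0.45 after treatment.

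Among the integrin α chains that bind laminin-332, Itga3 rose relative to Itga6, from 0.397 to 0.68 in mouse and, in spiny mouse, from 0.41 to 0.569. In spiny mouse this ratio did not pass without treated replicate 1 or 3 (exact permutation adjusted p = 0.0739). Relative to Itgb1, a β subunit of other integrins, Itgb6 fell in spiny mouse from 0.116 to 0.0539, with log2 ratios of -3.09, -3.11, -2.99 and -3.23 before and -4.37, -3.94, -4.12 and -4.42 after treatment. In mouse the same ratio was 0.0634 and 0.0657 (exact permutation p = 0.943), and without untreated replicate 2 the log2 change was 0.39 (exact permutation adjusted p = 0.0331). Itga5 relative to Itgb1 went from 0.107 to 0.0737 in spiny mouse, a result that did not pass when any untreated replicate was left out (exact permutation adjusted p = 0.0739), and from 0.0982 to 0.0788 in mouse (exact permutation p = 0.143).

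Krt14 is a keratin of the same basal cells, and its own level rose by log2 fold changes of 2.16 and 1.78. The median over all genes was -0.146 and -0.01, so a gene without change of its own also falls against Krt14. All 5 members compared fell against it in both species, and this depended on the gene they were set against. These falls are part of the 17 passes. In mouse the other passes were Itga3 to Itga6 and Col17a1 to Itgb4. In spiny mouse every other ratio but Lama3 to Lamb3 passed. Col17a1 relative to Krt14 fell 8.45-fold in mouse and 2.6-fold in spiny mouse. The ratio fell 4.34-fold and 2.27-fold for Itga6, 4.48-fold and 1.74-fold for Itgb4, and 5.95-fold and 2.91-fold for Lamb3. For Itga3, whose own level rose, it fell 2.54-fold and 1.64-fold. In spiny mouse the Itgb4 ratio did not pass without treated replicate 3 (exact permutation adjusted p = 0.0739). Against Krt5, the other basal keratin, Col17a1, Itga6 and Lamb3 fell in both species and Itgb4 fell in mouse (exact permutation adjusted p = 0.0449 each). Itga3 in both species and Itgb4 in spiny mouse had log2 changes of 0.011, 0.13 and 0.034 against Krt5 (exact permutation adjusted p = 0.971, 0.444 and 0.86). Against Trp63, a transcription factor of basal cells, Col17a1 and Lamb3 fell and Itga3 rose in mouse, while Itga6, Itgb4 and Itga3 rose in spiny mouse (exact permutation adjusted p = 0.0484 each). The other 4 ratios to Trp63 did not pass. Krt5 and Trp63 were added after the data were seen, and the size of the changes was not compared between the species.

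The other genes of the pathway were counted from 5 lists of 52 genes, of which the 6 hemidesmosome partners are given above. Each list count below stands beside the shares over all genes tested. These were 25.9% higher and 35.3% lower in mouse, and 28.2% higher and 26.9% lower in spiny mouse. Of 13 other integrin subunits, 2 rose and 4 fell in mouse, with a median log2 fold change of -0.258, and 5 rose and 4 fell in spiny mouse, with a median of -0.0406. In mouse Itgb8, a partner of αv that also activates TGF-β, rose by a log2 fold change of 0.62 (edgeR adjusted p = 0.00289), and Itga11, a collagen receptor of fibroblasts, by 0.52 (edgeR adjusted p = 0.0139), a call lost with upper-quartile factors (0.31, edgeR adjusted p = 0.149). Both fell in spiny mouse, Itga11 by a log2 fold change of -1.05 (edgeR adjusted p = 0.00155) and Itgb8 by -0.52 (edgeR adjusted p = 0.0296). The Itgb8 call in spiny mouse was lost without untreated replicate 1 or 3 or treated replicate 1 or 2 (edgeR adjusted p from 0.0566 to 0.0748). The leukocyte integrin Itga4 was at 20.9, 18.6, 24.8 and 18.1 CPM in untreated and 10.7, 11.7, 11.3 and 11.3 CPM in treated mouse skin, and at 19.3, 16.1, 19.3 and 20.02 and then 37.6, 40.02, 52.2 and 40.5 CPM in spiny mouse. It fell in mouse by a log2 fold change of -0.87 (edgeR adjusted p = 0.000381) and rose in spiny mouse by 1.19 (edgeR adjusted p = 6.5e-05). Its partner Itgb7 had log2 fold changes of -0.77 (edgeR adjusted p = 0.00785) and 0.80 (edgeR adjusted p = 0.000306). Leukocyte markers summed to 434 to 1220 CPM in untreated and 392 to 549 CPM in treated mouse skin (0 higher and 2 lower of 5), and to 257 to 300 and 363 to 483 CPM in spiny mouse (2 higher and 0 lower of 4), and their part in these values was not tested. In spiny mouse Itgb3, the β chain of αvβ3, rose by 1.13 (edgeR adjusted p = 0.000284), and Itga8, an integrin chain of mesenchymal cells, fell with a log2 fold change of -1.49 (edgeR adjusted p = 0.000418). Fibroblast markers (Pdgfra, Col1a1, Col3a1, Dcn, Lum) summed to 3620 to 6040 CPM in untreated and 1940 to 2730 CPM in treated spiny mouse skin (1 higher and 2 lower of 5), and to 7170 to 11700 and 5560 to 8260 CPM in mouse (0 higher and 1 lower of 5). Their part in the values of Itga11 and Itga8 was not tested.

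Of 15 other laminin and basement membrane genes, 4 rose and 6 fell in mouse (median -0.136), and 1 rose and 11 fell in spiny mouse (median -0.548). In spiny mouse the fibroblast markers given above were lower in sum, with Col1a1 at -1.26 and Col3a1 at -1.50 (log2 fold changes, edgeR adjusted p = 0.00148 and 0.000229). The endothelial markers (Pecam1, Cdh5, Kdr, Emcn, Tek) summed to 193 to 234 CPM in untreated and 172 to 216 CPM in treated spiny mouse skin (0 higher and 2 lower of 5), and to 143 to 153 and 101 to 131 CPM in mouse (0 higher and 3 lower of 5). The part of either in this list was not tested. The β1 laminin chain Lamb1 rose in mouse, from 43.0, 70.7, 41.4 and 51.0 CPM to 156, 156.2, 160.1 and 151.1 CPM, and fell in spiny mouse, from 139.7, 127.3, 108.6 and 121.2 CPM to 86.3, 63.5, 102.5 and 89.6 CPM. The groups did not overlap in either species, and the log2 fold changes were 1.60 (edgeR adjusted p = 7.42e-05) and -0.54 (edgeR adjusted p = 0.00888). The collagen IV chain Col4a2 rose in mouse (log2 fold change 0.97, edgeR adjusted p = 0.000212), and Col4a6 fell in both species (-1.33, edgeR adjusted p = 0.000356, and -1.79, edgeR adjusted p = 8.12e-05). The laminin chain Lama1 was low throughout, at 9.09 ± 3.7 and 1.69 ± 0.434 CPM in mouse and 3.58 ± 1.45 and 6.87 ± 2.22 CPM in spiny mouse (SD, n = 4 each), with log2 fold changes of -2.43 (edgeR adjusted p = 0.000225) and 0.94 (edgeR adjusted p = 0.0371). Its call in spiny mouse was lost without untreated replicate 1, 2 or 4 or treated replicate 1, 3 or 4 (edgeR adjusted p from 0.0544 to 0.0989). Lamc3 fell in spiny mouse by a log2 fold change of -1.71 (edgeR adjusted p = 0.000403).

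The next list joins ligands of the wound integrins and TGF-β genes (Fn1, Tnc, Vtn, Spp1, Ltbp1, Tgfb1, Tgfb2, Tgfb3). Of these 8 genes, 2 rose and 4 fell in mouse (median -0.36), and 3 rose and 1 fell in spiny mouse (median 0.328). Tenascin C (Tnc), a matrix protein of healing skin that αvβ6 can bind, rose in both species. It went from 12.99, 44.5, 21.3 and 25.8 CPM to 318.2, 310.8, 306.5 and 356.3 CPM in mouse and from 82.0, 42.1, 41.9 and 54.3 CPM to 317.6, 365.3, 241.1 and 651 CPM in spiny mouse, with log2 fold changes of 3.63 (edgeR adjusted p = 3.96e-05) and 2.84 (edgeR adjusted p = 0.000158). Tgfb1, whose latent form αvβ6 activates, rose by log2 fold changes of 0.48 (edgeR adjusted p = 0.00242) and 0.97 (edgeR adjusted p = 0.000124), and Tgfb2 fell in both species (-1.36, edgeR adjusted p = 4.2e-05, and -0.88, edgeR adjusted p = 9.21e-05). Vitronectin (Vtn) fell in mouse with a log2 fold change of -1.84 (edgeR adjusted p = 0.0129), and its untreated replicate 1 was at 20.03 CPM with the others between 3.42 and 6.12, and without it the log2 fold change was -1.02 (edgeR adjusted p = 0.0161).

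Integrin adaptors, which link the receptors to actin, gave 4 rises and 1 fall of 9 tested in mouse (median 0.283), and 4 rises and 1 fall of 10 in spiny mouse (median 0.171). Vinculin (Vcl) and zyxin (Zyx) rose in mouse with log2 fold changes of 0.99 (edgeR adjusted p = 0.00015) and 0.84 (edgeR adjusted p = 0.000966). In spiny mouse Lims1, which encodes the adaptor PINCH1, rose by 0.38 (edgeR adjusted p = 0.000351) and paxillin (Pxn) by 0.28 (edgeR adjusted p = 0.0331), the latter not called without untreated replicate 1 or 3 or treated replicate 3 or 4 (edgeR adjusted p from 0.055 to 0.076). Kindlin-2 (Fermt2) fell in both species (-0.76, edgeR adjusted p = 0.000359, and -0.65, edgeR adjusted p = 0.0031). Between the species the change differed for 1 of 6 hemidesmosome partners, 10 of 13 integrins (7 larger in spiny mouse), 10 of 15 basement membrane genes (3 larger), 5 of 8 ligand and TGF-β genes (5 larger) and 5 of 9 adaptors (2 larger). Of all genes tested 46.1% differed (21.4% larger and 24.7% smaller in spiny mouse).

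**Figure D4:**
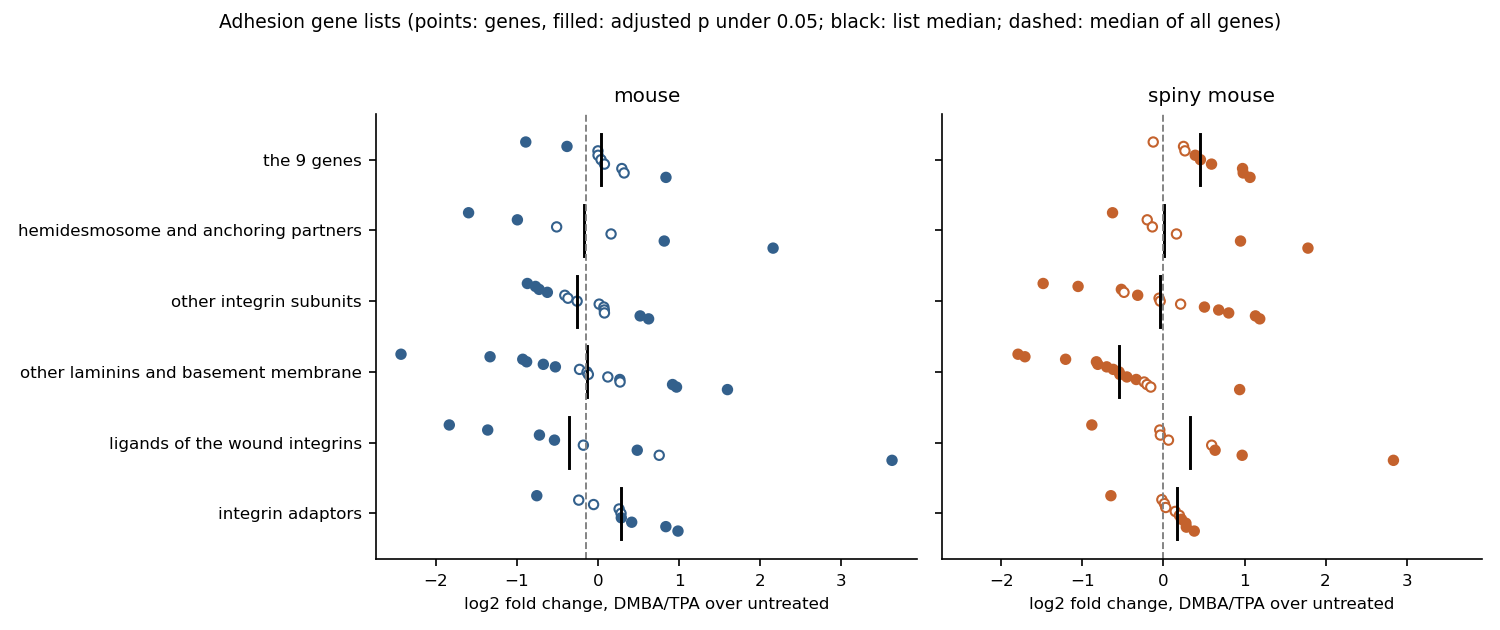
Log2 fold change of each gene in the 9 members and the 5 partner lists, in mouse (left) and spiny mouse (right). Filled points have an edgeR adjusted p under 0.05, the black bar is the list median and the dashed line the median of all genes tested. In spiny mouse the basement membrane list has its median at -0.548 and the members theirs at 0.456.

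The profiles most like those of 3 members were sought among 9775 genes with a mean log2 CPM of at least 3 in each of the species. A profile is the log2 CPM of the 16 samples, each less the mean of the untreated samples of its species, and likeness is the root mean square difference, which is a description without a test. Cecr2, Osmr and Npepps were nearest to Itgb4, at 0.163, 0.19 and 0.19, where the median over all genes was 0.63. The nearest other member was its partner subunit Itga6 at 0.256, and Col17a1 lay at 0.552. Bcar1, Man2b2 and Tbc1d2b were nearest to Lamb3, at 0.157, 0.157 and 0.16 (median 0.483), with Lama3 the nearest member at 0.295 and Itga3 the farthest at 0.765. Ccdc134, Apaf1 and Tln1 were nearest to Itga5, at 0.131, 0.143 and 0.156 (median 0.447). Tln1 encodes talin-1, which binds integrin β tails and is in the adaptor list.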

How the data were processed

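The deposited values are raw fragment counts per gene, made by the authors with featureCounts 2.0.3 per the file headers, as read pairs with both ends mapped and without a strand option, so that reads of a gene and of an antisense gene over it are not separated. The libraries were stranded, per the labels' protocols. Mouse counts used GRCm39 with Ensembl 108 and spiny mouse counts AcoCah2, per the file headers, and Trim Galore and HISAT2 are named per the submitters' processing notes, without versions or settings. Mouse symbols came from GENCODE by identifier (56236 of 56980 named). Of the members' exon bases, 1.83% of mouse Lama3 and 0.97% of spiny mouse Itgb4 overlap a gene on the other strand, and the other members none. The deposited gene lengths were used for levels per kilobase.

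Treated and untreated samples (4 each) were compared in each species with filterByExpr, TMM and the quasi-likelihood test of edgeR 4.0.16 (R 4.3.3), Benjamini-Hochberg over all genes. Standard errors are the log2 fold change divided by the square root of F. The species difference used 13656 shared symbols and all 16 samples. Ratios had 0.5 counts added per gene. Levels were not tested across species. Alternatives were DESeq2 1.42.0, other scalings and filters, limma 3.58.1 with voom and sample weights, a replicate block and leaving out each sample. The fits were also run on simulated counts in which few genes changed, as many up as down. The data here differ from that setting, so the run does not check the scaling. The members, lists and naming rule were chosen with earlier results of these data known: all members and hemidesmosome partners are named, and of each other list the called genes with the 2 largest rises and falls per species. Promoters were matched by symbol to RefSeq on GRCm38.p6, another build than the counts, and their coordinates were not compared. Results of 1 listed partner gene, and ratios with it, are not reported here. No batch or date is given in the labels.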

Additional observations from a re-analysis of the deposited data

Results flagged for a closer look

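Of 184 sets of 4 samples checked for a sample far from the other 3, 9 had one, and chance gives about 1 in 20. Among the members these were Itga6 in untreated spiny mouse replicate 2 (167.5 CPM, others 216.5 to 226.4) and Itga5 in treated spiny mouse replicate 4 (57.71 CPM, others 38.76 to 39.53). Among the partners they were Dst in untreated spiny mouse replicate 2 (504.5 CPM, others 801.1 to 850.5), Col7a1 in treated spiny mouse replicate 4 (62.05 CPM, others 41.9 to 42.93), and Vtn in untreated mouse replicate 1 (20.03 CPM, others 3.421 to 6.118) and untreated spiny mouse replicate 2 (7.655 CPM, others 5.174 to 5.545). The other 3 were log2 ratios of untreated mouse replicate 2: Lama3 to Lamb3 at -0.34 (others -0.92 to -0.84), Col17a1 to Itgb4 at 2.44 (others 2.80 to 2.82) and Itgb4 to Krt14 at -4.06 (others -5.48 to -5.27).

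The treatment change differed between the species (spiny mouse minus mouse, log2, edgeR's species by treatment term, each with an adjusted p under the threshold of 0.05) for 5 members: Col17a1 (1.28), Itgb4 (0.98), Itgb1 (0.69), Lamb3 (0.63) and Itga6 (0.51). It also differed for 17 of the partners named above, where 46.1% of all genes tested differed. Larger in spiny mouse were Lama1 (3.38), Itga4 (2.06), Vtn (1.79), Itgb7 (1.58), Itgb3 (1.06), Dst (0.97), Lims1 (0.62), Tgfb1 (0.49) and Tgfb2 (0.48). Smaller in spiny mouse were Lamb1 (-2.14), Lamc3 (-1.83), Itga11 (-1.57), Itga8 (-1.23), Col4a2 (-1.17), Itgb8 (-1.14), Vcl (-0.97) and Zyx (-0.64). The edgeR adjusted p-values of these partners ran from 3.71e-07 for Itga4 to 0.0206 for Tgfb2. The difference of Vtn was 0.98 without untreated mouse replicate 1 (edgeR adjusted p = 0.0184). Tgfb1 was not called without treated mouse replicate 2 (0.34, edgeR adjusted p = 0.0768), Tgfb2 without treated mouse replicate 1 or 2 (0.38, edgeR adjusted p = 0.0605 and 0.0715), and Zyx with upper-quartile factors (-0.47, edgeR adjusted p = 0.0651) or library size alone (-0.41, edgeR adjusted p = 0.102). With no filter on low counts Tgfb1 (0.35, edgeR adjusted p = 0.0656) and Tgfb2 (0.34, edgeR adjusted p = 0.0988) were not called.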

How the results depend on the processing

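The number of members called was 2 to 4 in mouse, 5 to 6 in spiny mouse and 4 to 6 for the species difference over 8 alternatives with all samples. Leaving out each sample in turn gave 2 to 5 (5 without untreated mouse replicate 2, which added Itgb1 and Itgb6), 5 to 6, and 3 to 6 (3 without treated mouse replicate 2, which removed Itga6 and Lamb3). Calls over all mouse genes were 13944 of 20009 without untreated mouse replicate 2, and 12085 of 19740 with all samples. For the species difference they were 6088 of 13743 without treated mouse replicate 2, and 6290 of 13656 with all samples. Nothing particular to the members was read from these counts. Without each sample in turn, partner genes called ran from 28 to 35, 28 to 32 and 26 to 34, and ratios passing from 15 to 19. Over the alternatives with all samples they ran from 29 to 37, 31 to 35 and 27 to 35, and ratios passing from 13 to 17. Direction turned where a change was near 0, and the cause was not tested. In mouse Itgb4 was 0.089 with the DESeq2 test and with DESeq2 size factors, 0.14 without a filter, 0.0055 with a mean of at least 10 counts, 0.10 with limma-voom and 0.030 with the replicate block. Mouse Itga5 was 0.096 with DESeq2's test and its size factors, 0.15 without a filter and 0.0064 with a mean of at least 10 counts. Mouse Cd151 was -0.028 under upper-quartile scaling, -0.063 under library size alone and -0.035 with limma-voom. Under upper-quartile scaling and library size alone, mouse Itga6 was -0.12 and -0.16 and mouse Lama3 -0.18 and -0.21. Without each sample in turn, the mouse log2 fold changes ran from -0.085 to 0.23 for Itgb4, from -0.070 to 0.16 for Itga5 and from -0.023 to 0.23 for Lama3. The log2 ratio changes ran from -0.11 to 0.39 for Itgb6 to Itgb1 in mouse, from -0.11 to 0.14 for Itga6 to Itgb4 in mouse and from -0.045 to 0.21 for Lama3 to Lamb3 in spiny mouse. Mouse Itgb6 was also called with limma-voom (0.47, adjusted p = 0.00294), and the Itgb6 difference with limma-voom (-0.54, adjusted p = 0.00368). The share of called mouse genes that were higher was 42.4% under TMM, 48.4% under DESeq2 size factors, 30.5% under upper-quartile scaling and 28.6% under library size alone, where the median moved by 0.0957, -0.205 and -0.239. Replicate numbers recur in each group, and the labels do not say whether they pair the samples. Deviations of same-numbered samples correlated by 0.0229, -0.00799, 0.0107 and 0.0121 in mouse and by -0.333, -0.367, -0.526 and -0.195 in spiny mouse. The means were 0.00943 and -0.355, beside -0.00325 and 0.119 for samples of different numbers. In either species 0 of 4 numbers correlated best with their own. Such correlations cannot show whether same-numbered samples were paired. With the replicate block 3, 5 and 5 members were called (not called with it: spiny mouse Col17a1 0.40, edgeR adjusted p = 0.0752, spiny mouse Pxn 0.28, edgeR adjusted p = 0.0514, and the Vtn difference 1.47, edgeR adjusted p = 0.0745), and 11246, 7418 and 5723 genes in all. All 9 nearest profiles were kept with DESeq2 size factors. With Krt5 in place of Krt14, chosen after seeing the data, 14 ratios passed, and the log2 changes of Itga3 in mouse (0.011), Itgb4 in spiny mouse (0.034) and Itga3 in spiny mouse (0.13) turned. With Trp63 13 passed, and those of Itga3 in mouse (0.62) and, in spiny mouse, of Col17a1 (0.23), Itga6 (0.43), Itgb4 (0.81), Lamb3 (0.068) and Itga3 (0.90) turned.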
